A study of Sus scrofa with 11 samples.

Results

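The genes described are those for translation initiation factors (EIF) and elongation factors (EEF) in the *M. semimembranosus*, a hind limb muscle, of Duroc gilts on a high protein (HP) or a low protein (LP) diet. They were chosen by name: every gene whose symbol in the platform annotation starts with EIF or EEF and that has a probe set carrying no other symbol. This gave 42 of the 6765 genes named in this way, read by 64 of the 23999 probe sets tested. Each gene was read by its brightest probe set outside the array's controls, the one with the highest mean over the 11 arrays, and the 22 dimmer probe sets are given beside it. The set also takes in genes that the letters bring with them, such as the kinase EIF2AK2, the binding protein EIF4EBP2 and the lysine methyltransferase EEF1AKMT1.

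All pigs were purebred Duroc gilts. They were fed diets of equal energy for 63 days in the finisher stage, 6 on the HP diet and 5 on the LP diet, and RNA of each pig was hybridised to an Affymetrix Porcine Genome array of its own. The diets differed in crude protein, in lysine and other amino acids, in crude oil and in their wheat and soya bean meal. These cannot be told apart. The levels are the authors' values on a log2 scale, on which a difference of 1 is a doubling, and differences are given as LP minus HP.

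Translation of an mRNA begins when the small ribosomal subunit, loaded with initiator tRNA by eIF2 and held by eIF1, eIF1A and the large eIF3 complex, is brought to the capped end of the message by the eIF4 factors. The cap-binding protein eIF4E can be held back by the 4E-BP proteins, which mTORC1 inactivates when amino acids are plentiful, and eIF2 can be blocked by kinases that phosphorylate its alpha subunit under stress. After the large subunit has joined, with the help of eIF5B, the eEF1 complex delivers each aminoacyl-tRNA. Much of this control acts on the proteins and is not seen in mRNA levels. In bulk tissue a lower share of a cell type and less RNA per cell cannot be told apart.

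The arrays all had a median of 6.72, but they differed at the bright end. The 95th percentile of the levels ran from 11.3 to 11.8 over the HP arrays and from 11.5 to 11.7 over the LP arrays, and the mean of the hybridisation spike-ins from 11.3 to 12.2 and from 11.4 to 11.8. All 9 measured markers of muscle fibres (among them CKM, MYH2 and TTN) were above background on every array. The mean log2 level over these 9 markers ran from 13.03 to 14.01 in HP and from 13.13 to 13.57 in LP. None of the 31 measured markers of fibres, adipocytes, fibroblasts, endothelium, macrophages, lymphocytes and red blood cells passed the test, and their part in the results below was not tested. The mean log2 level over the 4 adipocyte markers ran from 6.7 to 8.0 in HP and from 7.1 to 7.9 in LP. Over the 4 fibroblast markers it ran from 9.24 to 9.62 and from 8.88 to 9.46. Single adipocyte markers differed by between -0.16 and 0.74, with 2 of the 4 below 0. The paper reports a higher intramuscular fat content in the LP muscle.

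Translation factor mRNA was plainly measured in this muscle, and no factor gene passed the test for a difference between the diets. Of the 42 genes, 41 were above background on all 11 arrays. The exception was EIF1AY, the Y-linked copy of EIF1AX, which was not above background on any of the 11 arrays of these female pigs. None of the 42 was called by limma at an unadjusted p of 0.05 or less, where 4.73% of all 6765 genes were called, 1.57% as higher and 3.16% as lower in LP. The gene nearest to a call was EIF4A2, the only 1 of the 42 with an exact permutation p of 0.05 or less on the same values (two-sided, p = 0.0498), where 5.88% of all genes passed that test. The p given beside single genes below are from this exact test, unadjusted and two-sided, and the calls are limma's. After Benjamini-Hochberg adjustment over all 23999 probe sets the smallest adjusted p of a factor in limma was 0.968, and no probe set on the array passed.

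**Figure D1:**
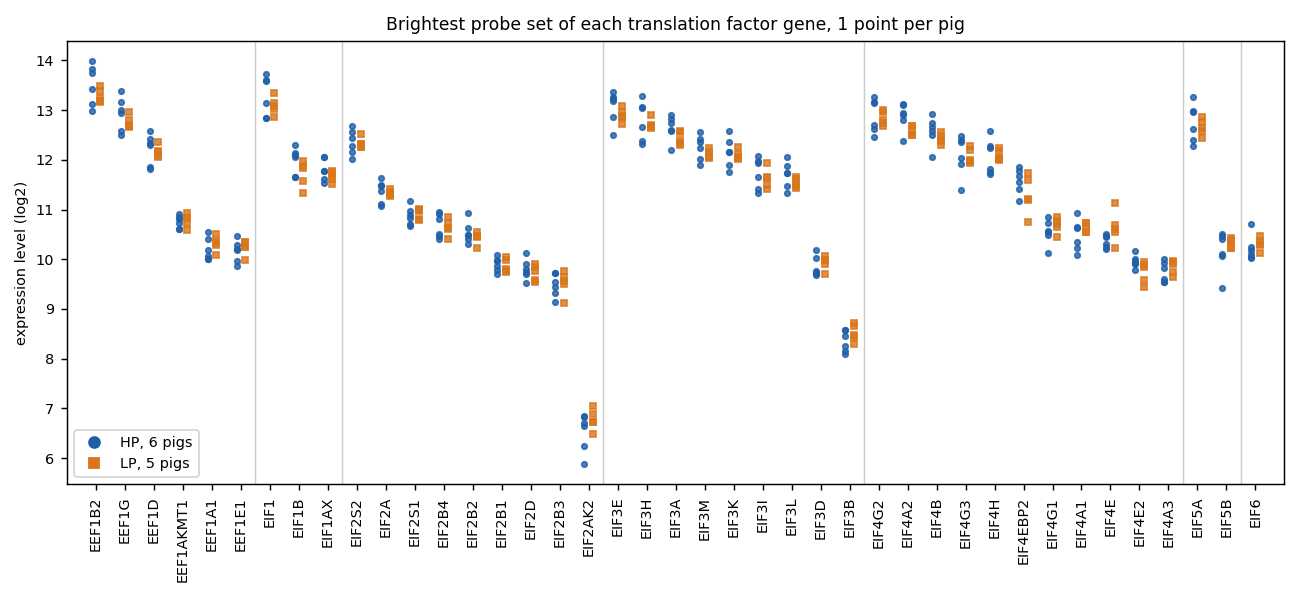
Expression level (log2) of the brightest probe set of each of the 41 factor genes above background, with 1 point per pig (circles, HP, n = 6; squares, LP, n = 5), grouped by factor number. The HP and LP points overlap for every gene; heights of different genes are readings of different probes and are not comparable.

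The precision behind these results was fairly even over the genes. Among the 41 genes above background the standard error of the difference ran from 0.11 to 0.20, with a median of 0.14. The SD within diets, pooled over both, had a median of 0.21. In most genes the HP pigs varied more than the LP pigs, as for EIF4A2 (SD 0.27 in HP and 0.09 in LP). In a few it was the reverse, as for EIF4E (SD 0.13 in HP and 0.32 in LP). The differences themselves ran from -0.29 for EIF4A2 to 0.27 for EIF4E. The 95% interval of the difference lay inside 1.5-fold in either direction for 34 of the 42 genes and inside 2-fold for 41 of them. The levels of the HP and LP pigs overlapped for all 42 genes, but no share over all genes is set beside this count.

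**Figure D2:**
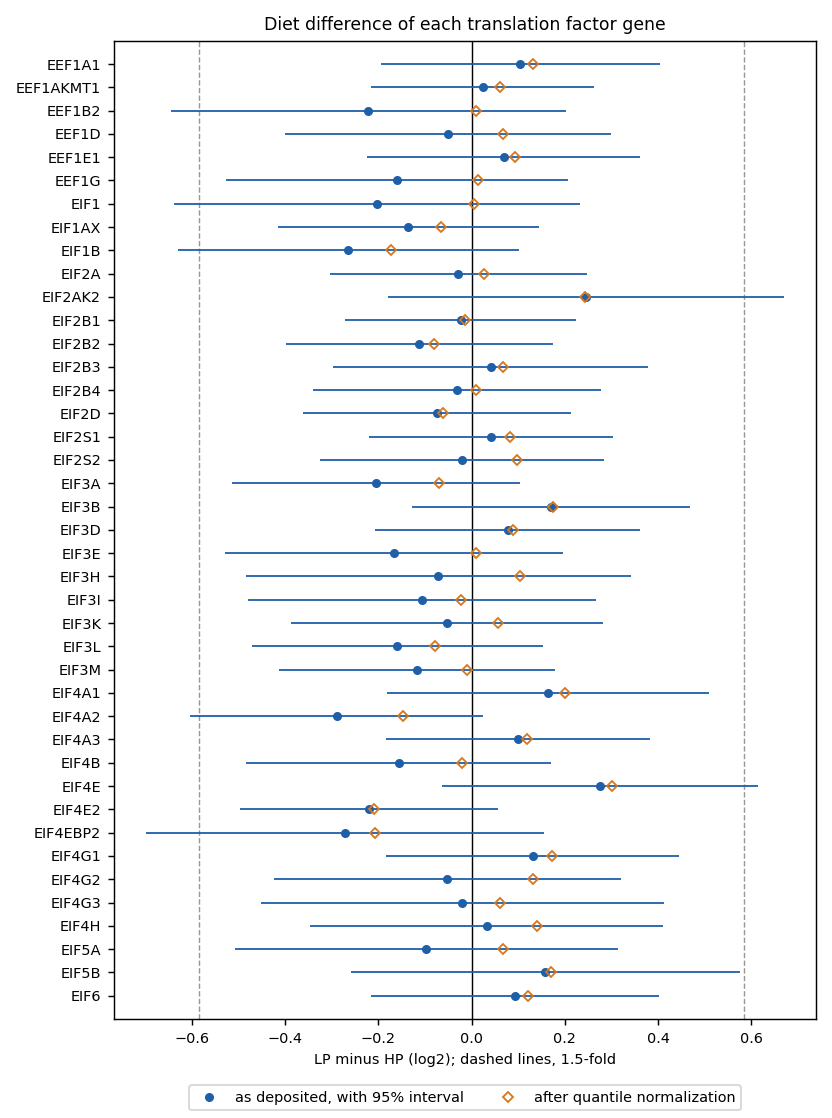
LP minus HP (log2) for each of the 41 factor genes above background: filled circles, deposited values with the 95% interval from limma; open diamonds, the same difference after quantile normalization; dashed lines, 1.5-fold. Every interval spans 0, and quantile normalization moved EEF1B2, EIF1 and EIF3E from -0.22, -0.20 and -0.17 to 0.01 each.

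The factors that settle on the small subunit before the start codon is found were read by 4 EIF1 genes, none of which passed the test. EIF1, which guards the choice of start codon, was at 13.29 ± 0.40 (SD, n = 6) in HP and 13.09 ± 0.18 (SD, n = 5) in LP, a difference of -0.20 with a standard error of 0.20 (exact permutation p = 0.325). Its other probe set gave the same difference, -0.20. EIF1B, a close relative of EIF1, was at 11.83, 11.57, 11.87, 11.97 and 11.34 in the LP pigs and between 11.65 and 12.29 in HP, with a median of 12.07. All 5 LP pigs were below the HP mean, but 3 of them lay above the lowest HP pig, and the difference was -0.26 with a standard error of 0.17 (exact permutation p = 0.132). EIF1AX, which encodes eIF1A and works with eIF1 in scanning, differed by -0.14 (exact permutation p = 0.236), with all 5 LP pigs below the HP mean as well.

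None of the 9 EIF2 genes passed the test, and apart from the kinase EIF2AK2 their differences ran from -0.11 to 0.04. EIF2S1, the alpha subunit that the stress kinases phosphorylate, was at 10.87 ± 0.19 (SD, n = 6) in HP and 10.92 ± 0.11 (SD, n = 5) in LP, a difference of 0.04 with a 95% interval from -0.22 to 0.30 (exact permutation p = 0.680). EIF2S2, the beta subunit, differed by -0.02 with an interval from -0.32 to 0.28 (exact permutation p = 0.868). The exchange factor eIF2B, which recharges eIF2 with GTP, was read by 4 of its subunits, and these differed by between -0.11 for EIF2B2 (exact permutation p = 0.374) and 0.04 for EIF2B3. EIF2D, which can place tRNA on the ribosome without eIF2, differed by -0.07 (exact permutation p = 0.528).

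EIF2AK2 encodes PKR, the kinase of eIF2 that responds to double-stranded RNA. Its level was 6.72, 6.89, 6.49, 6.73 and 7.04 in the LP pigs and ran from 5.88 to 6.85 in HP, with a median of 6.68. In 4 of 5 LP pigs it was above the HP mean, but the groups overlapped, and the difference of 0.25 (standard error 0.19) did not pass the test (exact permutation p = 0.242). HP replicate 4 was the lowest pig, and the difference was 0.12 without it, 0.12 with the spike-in covariate and 0.039 without HP replicates 1, 2 and 4. The kinase genes EIF2AK1, EIF2AK3 and EIF2AK4 were not analysed here, since no probe set carried their symbol alone.

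The eIF3 complex, the scaffold that holds the small subunit and the message together, was read by 9 subunits. In 7 of them the LP mean was below the HP mean, with a median difference over the 9 of -0.11, and after quantile normalization this was 4 of 9 with a median of 0.01. EIF3A, its largest subunit, was at 12.40, 12.33, 12.31, 12.57 and 12.56 in LP and between 12.19 and 12.90 in HP, with a median of 12.67. All 5 LP pigs were below the HP mean and above the lowest HP pig, and the difference was -0.21 with a standard error of 0.14 (exact permutation p = 0.132). Without HP replicate 3 it was -0.30 and called by limma, while after quantile normalization and with the spike-in covariate it was -0.07 each. EIF3E and EIF3L differed by -0.17 and -0.16 (exact permutation p = 0.307 and 0.249), and EIF3B by 0.17 (exact permutation p = 0.182).

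EIF3D, the subunit with a cap-binding activity of its own, gave unlike readings from its 2 probe sets. By the brighter, which was above background on all arrays, the difference was 0.08 with a standard error of 0.13 (exact permutation p = 0.502). The dimmer probe set was at 4.77, 5.15, 5.18, 5.24 and 4.70 in the LP pigs and ran from 2.22 to 5.04 in HP, with a median of 4.16. It was the only factor probe set of 64 that was called, at 0.96 with a standard error of 0.43 (exact permutation p = 0.0325), where 5.11% of all probe sets were called, 2.15% as higher and 2.97% as lower in LP. On HP replicate 2, the lowest pig at 2.22, it was not above background, and without that array the difference was 0.59. With the spike-in covariate it was 0.74 and in the replicate block 1.01, neither called. After quantile normalization it was 0.93 and without HP replicates 1, 2 and 4 it was 0.68, both called by limma. Of the 11 settings that left out a single array, the call held only without HP replicate 2, 3 or 4.

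The eIF4 genes bring the message to the ribosome, and the lowest and the highest difference of all factors were both among them. EIF4A2, 1 of the helicases that unwind the 5′ end of the message, was at 12.50, 12.49, 12.57, 12.68 and 12.68 in the LP pigs and ran from 12.38 to 13.13 in HP, with a median of 12.91. All 5 LP pigs were below the HP mean, and HP replicate 3 was the only HP pig lower than any of them. The difference was -0.29 with a standard error of 0.14 and a 95% interval from -0.60 to 0.02 (exact permutation test, two-sided, p = 0.0498). After quantile normalization it was -0.15 (not called by limma), and without HP replicate 3 it was -0.39 and called.

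EIF4A1, the other cytoplasmic helicase of this kind, was at 10.74, 10.54, 10.54, 10.67 and 10.73 in LP and between 10.08 and 10.93 in HP, with a median of 10.49. All 5 LP pigs were above the HP mean, within the HP range. The difference was 0.16 with a standard error of 0.16 (exact permutation p = 0.279).

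EIF4E, which binds the cap, was at 11.12, 10.55, 10.23, 10.70 and 10.60 in LP and between 10.20 and 10.50 in HP, with a median of 10.38. In 4 of 5 LP pigs it was above every HP pig, and LP replicate 3 lay near the lowest HP pig. The difference was 0.27 with a standard error of 0.15 (exact permutation p = 0.0693), and without LP replicate 3 it was 0.38 and called by limma. EIF4E2, a cap-binding relative that does not join eIF4G and tends to hold translation back, was at 9.84, 9.58, 9.89, 9.94 and 9.44 in LP and between 9.78 and 10.16 in HP, with a median of 9.95. All 5 LP pigs were below the HP mean, with 3 of them inside the HP range. The difference was -0.22 with a standard error of 0.13 (exact permutation p = 0.0649), and by its 2 dimmer probe sets it was -0.02 each.

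EIF4EBP2, a repressor that binds eIF4E, was read by 5 probe sets, more than any other factor. The brightest was at 11.22, 11.20, 11.59, 11.74 and 10.75 in LP and between 11.18 and 11.86 in HP, with a median of 11.61, which left the groups widely overlapping (difference -0.27, standard error 0.19; exact permutation p = 0.193). The next 3 probe sets differed by -0.17, -0.23 and -0.11, and the dimmest, at a level of 3.67 in HP, by 0.61 (exact permutation p = 0.0671). EIF4EBP1, the better known of these repressors, was not analysed here. EIF4G1, the scaffold that joins the cap to the small subunit, differed by 0.13 (exact permutation p = 0.351), and EIF4G2, a relative that lacks the part binding eIF4E, by -0.05 (exact permutation p = 0.753).

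None of the genes for the last steps of initiation and for elongation was called either. EIF5B, which joins the subunits, differed by 0.16 (standard error 0.19; exact permutation p = 0.509), and its other probe sets by 0.32 and 0.41 (exact permutation p = 0.758 and 0.0411), neither of them called by limma. HP replicate 4 was the lowest pig on all 3 of its probe sets, and without that array the differences were 0.011, -0.11 and 0.25. EIF5A, which relieves ribosomes that stall and carries the hypusine residue, differed by -0.10 on its bright probe set and by 0.18 on the other (exact permutation p = 0.613 and 0.292). EIF6, which keeps the subunits apart until the large one is mature, differed by 0.09 (exact permutation p = 0.487).

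The eEF1 complex was read by its carrier subunit EEF1A1 and by the exchange subunits EEF1B2, EEF1D and EEF1G. EEF1E1 and the methyltransferase EEF1AKMT1 also fell under the letters EEF. EEF1B2 was at 13.17, 13.18, 13.24, 13.49 and 13.38 in LP and between 12.97 and 13.99 in HP, with a median of 13.59. All 5 LP pigs were below the HP mean, inside the HP range, and the difference was -0.22 with a standard error of 0.19 (exact permutation p = 0.255). EEF1G differed by -0.16 (exact permutation p = 0.335).

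EEF1A1, which carries aminoacyl-tRNA to the ribosome, differed in sign with the probe set that read it. Its brightest probe set was at 10.32, 10.37, 10.50, 10.28 and 10.08 in LP and between 10.01 and 10.55 in HP, with a median of 10.13, a difference of 0.10 (exact permutation p = 0.392). The 2 dimmer probe sets differed by -0.12 and 0.13. The array also holds 3 control probe sets for this gene, spaced from the 5′ to the 3′ end of the mRNA, which were left out with all other controls. The middle one carries the symbol EEF1A1 too and, at 12.77 in HP, was brighter than the probe set used here. The 3 controls differed by -0.20, -0.25 and -0.25, with exact permutation p = 0.167, 0.0801 and 0.165. The muscle form EEF1A2 and the translocase EEF2 were not analysed here.

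Of the 16 factor genes with more than 1 probe set, the probe sets shared a sign in 12. They differed in sign for EEF1A1, EIF2A, EIF4EBP2 and EIF5A.

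As a body, the 42 factor genes had a median difference of -0.05, with 27 of them below 0, beside a median of -0.04 over all 6765 genes, of which 57.5% were below 0. That sign turned with the scaling of the arrays. After quantile normalization the median of the factors was 0.06, with 13 of 42 below 0, where 50.9% of all genes were below 0 with a median of -0.004. With the spike-in level of each array as a covariate it was 0.11, with 8 of 42 below 0, where 40.9% of all genes were with a median of 0.04. No direction is therefore given for the factors as a body. With HP replicates 1, 2 and 4 left out together, a choice made after the values were seen, the median was 0.14 with 7 below 0, and 3 factors were called as higher, where 5.07% of all genes were.

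The sign of a factor's difference went with the brightness of its probe set, and the classes of brightness that follow were also chosen after the values were seen. Of the 16 factors with a mean level of 12 or more, 15 were below 0, with a median difference of -0.11, and of all 465 genes that bright 94.6% were below 0, with a median of -0.16. Of the 17 factors between 10 and 12, 8 were below 0 with a median of 0.02, beside 64.5% and -0.05 for all 1535 genes there. Of the 9 dimmer factors 4 were below 0. After quantile normalization the bright factors had a median of 0.03, with 4 of 16 below 0, and 49.0% of all genes that bright were below 0.

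**Figure D3:**
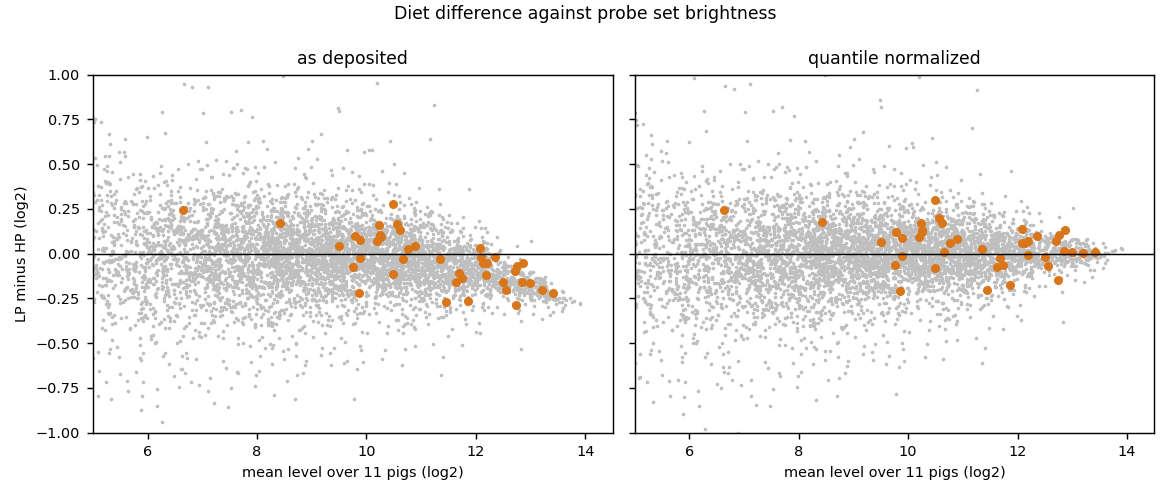
LP minus HP (log2) against mean level over 11 pigs (log2) for all genes (grey) and the 41 factors above background (orange), as deposited on the left and after quantile normalization on the right; genes outside the axes are not drawn. On the deposited scale the grey cloud bends below 0 at its bright end and the factors lie in it, and after quantile normalization the bend is gone.

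Array by array, the bright factors moved together. The median deviation of the 16 bright factors from their own means was highest on HP replicates 4, 2 and 1, at 0.40, 0.28 and 0.25, and lowest on HP replicates 3 and 6, at -0.36 and -0.21. Over the LP arrays it ran from -0.14 to 0.14. The spike-ins were also brightest on HP replicates 4, 2 and 1, at 12.22, 12.19 and 12.04, and dimmest on HP replicates 3 and 6, at 11.30 and 11.42. After quantile normalization the deviations of the bright factors ran from -0.05 to 0.06, and the part of array brightness in the differences was not tested beyond these settings.

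**Figure D4:**
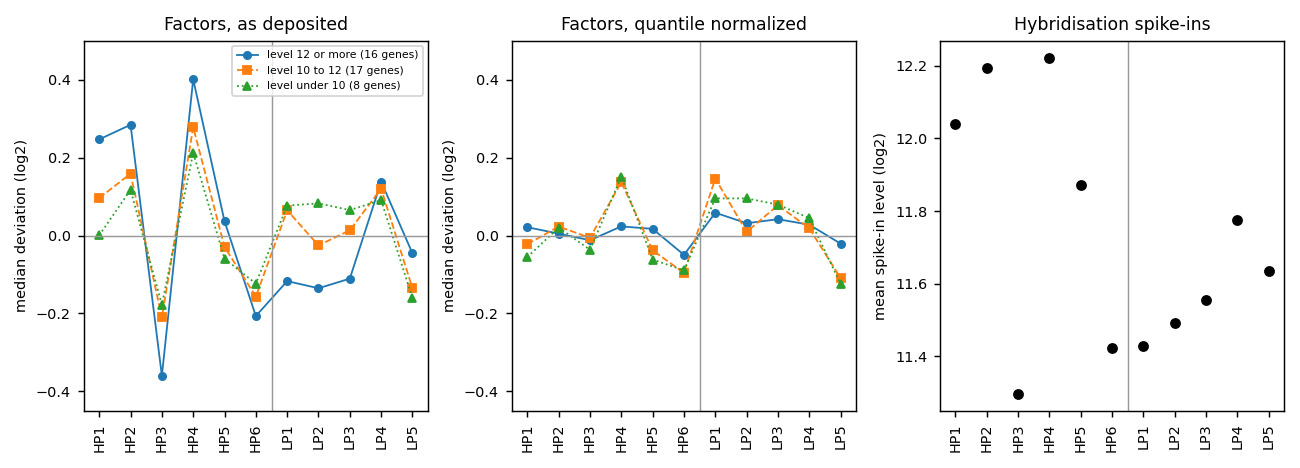
Median deviation (log2) of the factors from their means over 11 pigs, array by array, in 3 classes of mean level, as deposited (left) and after quantile normalization (middle), and the mean level of the 27 spike-in probe sets (right). On the deposited scale the bright factors range from -0.36 to 0.40 over the HP arrays, the arrays with the brightest spike-ins being highest.

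A pair of related factors can be compared within each array, which asks whether they changed unequally between the diets. Such a difference says nothing of which of the pair changed, and its level is a matter of the probes. Where the pair differs in brightness, the shift of bright probe sets described above need not cancel in it. Of 14 pairs listed, 6 had both genes measured. By the exact permutation test 2 of the 6 had an unadjusted p of 0.05 or less, and 1 had an adjusted p of 0.05 or less over the 6.

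EIF4A1 minus EIF4A2 was at -1.76, -1.95, -2.02, -2.01 and -1.95 in the LP pigs and ran from -3.01 to -2.14 in HP, with a median of -2.27. Every LP pig was above every HP pig. The means were -2.39 ± 0.32 (SD, n = 6) in HP and -1.94 ± 0.10 (SD, n = 5) in LP, a difference of 0.45 (exact permutation test, two-sided, p = 0.00433; adjusted p = 0.0260). HP replicate 5 was far below the other HP pigs, and without it the difference was 0.33. The mean level of EIF4A2 was 12.74 and that of EIF4A1 10.56. On the deposited values all genes of 12 or more had a median difference of -0.16, and those from 10 to 12 of -0.05. The part of brightness in this pair was not tested beyond the settings given here. After quantile normalization the difference was 0.35 and no longer passed (exact permutation p = 0.0887, adjusted p = 0.266). With the spike-in covariate it was 0.45 (exact permutation p = 0.0216, adjusted p = 0.0996). Leaving out LP replicate 1, 2, 4 or 5 in turn also ended the call, with exact permutation p between 0.0143 and 0.0190 and adjusted p between 0.0857 and 0.114.

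EIF4E minus EIF4E2 was at 1.28, 0.96, 0.34, 0.76 and 1.16 in the LP pigs and ran from 0.15 to 0.69 in HP, with a median of 0.40. In 4 of 5 LP pigs it was above every HP pig, and LP replicate 3 lay inside the HP range. The difference was 0.49 (exact permutation test, two-sided, p = 0.0260), which did not pass after adjustment over the 6 pairs (p = 0.0779). Quantile normalization left it at 0.51 (exact permutation p = 0.0260, adjusted p = 0.156), and averaging the probe sets of each gene gave 0.36 (exact permutation p = 0.0563, adjusted p = 0.169).

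The other 4 pairs did not pass. EIF4B minus EIF4H, a pair that assists the helicases, differed by -0.19 (exact permutation p = 0.0736), EIF4G1 minus EIF4G2 by 0.18 (exact permutation p = 0.247), EIF4G1 minus EIF4G3 by 0.15 (exact permutation p = 0.539) and EIF1 minus EIF1B by 0.06 (exact permutation p = 0.701). In EIF4G1 minus EIF4G3 a single pig, HP replicate 4, stood at -0.66 where the other HP pigs lay from -1.83 to -1.56. Without that pig the difference of this pair was 0.33 and passed (exact permutation p = 0.00794, adjusted p = 0.0238).

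**Figure D5:**
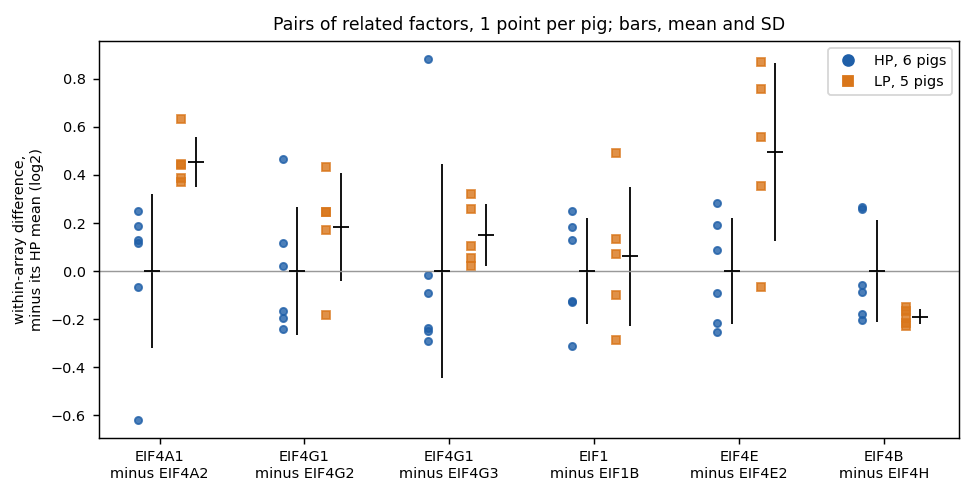
Within-array difference between the factors of each of the 6 pairs (log2), set to 0 at the HP mean, with 1 point per pig (circles, HP; squares, LP) and bars for the mean and SD of each diet. For EIF4A1 minus EIF4A2 all 5 LP pigs lie above the HP pigs; the other pairs overlap.

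Of the genes that act on or beside the factors, 33 were measured over 5 lists, and none passed the test. Among 5 genes that bind the message or close it into a loop, TPT1, the translationally controlled tumour protein, and PABPC4, a poly(A)-binding protein, had the smallest p, at differences of -0.28 and -0.18 (exact permutation p = 0.177 and 0.203). Among 6 mitochondrial translation factors these were MTRF1 and MTRF1L, both of the release factor family, which differed by -0.30 and 0.22 (exact permutation p = 0.0303 and 0.117), and neither was called by limma.

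Among 7 genes of mTORC1 and MNK signalling, RRAGC, a Rag GTPase of the amino acid sensing complex, differed by -0.19 and PPP2CA, a phosphatase catalytic subunit, by -0.19 (exact permutation p = 0.132 and 0.147). Among 7 genes of the integrated stress response, PPP1R15A, which helps strip the phosphate from eIF2, differed by 0.28 and DNAJC3, an inhibitor of the eIF2 kinases, by -0.23 (exact permutation p = 0.149 and 0.177). Among 8 genes for modification and folding, NACA and BTF3, the subunits of the nascent polypeptide-associated complex, differed by -0.21 and -0.18 (exact permutation p = 0.208 and 0.227). None of the 9 genes listed for release and recycling was measured.

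Factor mRNAs of the terminal oligopyrimidine class, whose translation is tuned by mTORC1, were counted apart. Of 9 such genes 7 were measured, none was called, and 6 were below 0 with a median of -0.16. The gene above 0 was EEF1A1, and by its 3 control probe sets it differed by -0.20, -0.25 and -0.25. All of the 7 genes but EEF1A1, as read here, had a mean level of 12 or more. Of all 465 genes that bright 94.6% were below 0, with the same median of -0.16. After quantile normalization the median of the list was 0.01, with 1 below 0, where 49.0% of all genes that bright were below 0.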

How the data were processed

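Expression was measured in 6 HP and 5 LP gilts, 1 array per pig. The deposited values are the authors' log2 levels per probe set. The methods name R, Bioconductor and puma, and for the background and normalization steps nothing is stated (not given in the sources used here). The same holds for the weight block and pen of each pig. Of 24123 probe sets, 124 controls were left out. Gene symbols came from the platform annotation, with 10069 probe sets of 1 symbol, 198 of several and 13732 of none.

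With limma 3.58.1 in R 4.3.3 the LP and HP means of every probe set were compared (constant prior, two-sided, no covariates). A call needed a p of 0.05 or less before adjustment. The study used the same cutoff of 0.05, but on P-like values from puma, so its calls and these are not the same measure. The fit was tested on simulated data with noise drawn for each probe set and array on its own. Those data lacked the shared shifts between arrays described above, so how the fit handles such shifts was not tested. Exact permutation tests used all 462 splits into 6 and 5 (smallest possible p 0.00216). Pairs of factors were adjusted by Benjamini-Hochberg over the 6 measured. A level was above background where it exceeded those of all 23 negative control probe sets of its array. The number of arrays limits the precision.

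Named factors are any called, the 3 smallest p in limma and the brightest of each factor number, those with a called dimmer probe set, and a list of central factors, 10 of 18 measured. From the other lists the 2 smallest p in limma are named. The members, lists and pairs were chosen with earlier results of these data known. Alternatives were quantile normalization, the spike-in level as a covariate, filters and a floor on low values, another prior, array weights, a replicate block, the mean of a gene's probe sets, the exact test and leaving out arrays.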

Additional observations from a re-analysis of the deposited data

Results flagged for a closer look

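In 4 of 82 groups of pigs searched over the 41 factors above background, 1 array lay far from the rest of its diet group, with a gap that was too large a part of the group's range by Dixon's criterion; chance flags about 5% of groups. EEF1E1, an accessory gene of the synthetase complex, was at 9.98 in LP replicate 5, where the other LP pigs lay from 10.24 to 10.34. LP replicate 4 was the highest LP pig for EIF2S2, at 12.52 against 12.26 to 12.33, and for EIF3H, at 12.91 against 12.64 to 12.71. EIF6 was at 10.70 in HP replicate 4, where the other HP pigs lay from 10.03 to 10.24.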

How the results depend on the processing

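With standard errors of 0.11 to 0.20 on 6 and 5 arrays, smaller differences than those measured here may be present. No factor was called as higher in LP on the deposited values, and 1 was with the spike-in covariate (EIF4G1) and 1 with the probe sets of a gene averaged (EIF3D). Leaving out single arrays gave 0 to 1 (EIF4E without LP replicate 3), and 3 were called when HP replicates 1, 2 and 4 were all dropped, which was chosen after seeing the data (EIF3B, EIF4A1 and EIF4H). None was called as lower, and 1, EIF4A2 each time, was with low values raised to the 20th percentile, with a trended robust prior, with array weights and by the exact permutation test. Leaving out single arrays gave 0 to 3 called as lower, with EIF3A, EIF4A2 and EIF4B called without HP replicate 3. That array had the dimmest spike-ins, at 11.30. A share of all genes called is given above only for the deposited values, the exact test and the drop of HP replicates 1, 2 and 4. The counts in the other settings have no such share beside them and are not read as a result about the factors. The median difference of the factors ran from -0.10 to 0.01 when single arrays were left out and was 0.14 without HP replicates 1, 2 and 4.

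The count of factor pairs at an adjusted p of 0.05 or less was 1 on the deposited values. It was 0 after quantile normalization, with the spike-in covariate, in the replicate block and without HP replicates 1, 2 and 4. Without HP replicates 1, 2 and 4, EIF4A1 minus EIF4A2 differed by 0.60 and EIF4G1 minus EIF4G3 by 0.32. Both had the smallest exact permutation p that the remaining arrays can give, 0.0179 (adjusted p = 0.0536). The count of 0 there therefore does not show that a difference was lost. The same holds for the replicate block, where no exact permutation p can be below 0.0625. Leaving out single arrays gave 0 to 2: 0 without LP replicates 1, 2, 4 or 5, each in turn, and 2 without HP replicate 4 (with EIF4G1 minus EIF4G3) or LP replicate 3 (with EIF4E minus EIF4E2). The difference of EIF4A1 minus EIF4A2 was 0.33 to 0.50 over these, with exact permutation p = 0.0190 at most. The pairs have no prior or array weights, so those settings were not run for them.

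The replicate numbers did not pair the pigs: same-numbered samples had correlated deviations of -0.15, 0.04, 0.01, 0.09 and 0.06. The replicate block called 0 factors in either direction, with a median difference of -0.08, and 5 pairs of pigs cannot give an exact p below 0.0625.

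Of the settings run for the 26 named factors, 527 kept the direction and the side of the threshold, 11 brought a call, and 33 turned the direction of a difference that was called in neither fit. Quantile normalization gave EEF1B2 0.0091, EEF1G 0.013, EIF1 0.0052, EIF2S2 0.098, EIF3E 0.0094, EIF4G2 0.13 and EIF5A 0.068. The spike-in covariate gave EEF1B2 0.043, EEF1G 0.057, EIF1 0.065, EIF2B2 0.014, EIF2D 0.037, EIF2S2 0.13, EIF3E 0.037, EIF4G2 0.12 and EIF5A 0.15. Leaving out HP replicates 1, 2 and 4 gave EEF1B2 0.11, EEF1G 0.089, EIF1 0.15, EIF2B2 0.031, EIF2D 0.033, EIF2S2 0.19, EIF3E 0.051, EIF3L 0.034, EIF4G2 0.24 and EIF5A 0.22. With single arrays left out, EIF2S2 ran from -0.088 to 0.045, EIF4G2 from -0.14 to 0.021 and EIF5A from -0.19 to 0.0042. EIF5A by the average of its probe sets was at 0.039, and EEF1A1 read by its control probe set, also tried after seeing the data, at -0.25. The cause was not tested for any of these.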

Other observations

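Factor probe sets that carry a second symbol were kept out of the 42 genes, and 6 of them were on the array. The brighter probe set annotated to SLC12A8 and EIF3G was at 11.79 ± 0.33 (SD, n = 6) in HP and 11.77 ± 0.12 (SD, n = 5) in LP, and the brighter one annotated to EIF2S3 and an uncharacterised locus at 11.63 ± 0.16 and 11.55 ± 0.07. The brighter probe set annotated to EIF4EBP3 and ANKHD1 was at 10.49 ± 0.26 in HP and 10.50 ± 0.13 in LP. Their differences were -0.02, -0.07 and 0.01 (exact permutation p = 0.892, 0.385 and 0.959), and none of the other 3 was called. The gap between the 3′ and 5′ control probe sets of EEF1A1, a measure of RNA integrity, ran from 0.55 to 1.02 over the HP arrays and from 0.56 to 0.80 over the LP arrays. The same gap for actin ran from 5.38 to 6.46 in HP and from 5.12 to 5.93 in LP, and its difference was -0.43 (LP minus HP, exact permutation p = 0.123).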
